A study of Mus musculus with 2 samples.

Results

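The cells described here are gamma-delta and innate-like T cells, 96 of 25200 cell barcodes in single-cell RNA libraries of tumour-infiltrating immune cells. A barcode was taken as a member when it held at least 2 unique molecular identifiers (UMIs, single captured RNA molecules) of Cd3d, Cd3e and Cd3g together and at least 1 UMI of Trdc or of Cd163l1. It also had to hold no UMI of Cd4, Cd8a, Cd8b1, Ncr1 or Klrb1c, and less than 0.1% of its UMIs could come from the complement genes C1qa, C1qb and C1qc or from the B cell genes Cd79a, Cd79b and Ms4a1. The members were thus chosen by measured UMI counts of these genes, whose levels are not findings. By this rule 59 of 13962 barcodes of the PBM library and 37 of 11238 barcodes of the control library were members. PBM is photobiomodulation, a treatment with light. MC38, a colon carcinoma line of the mouse, had been implanted under the skin of C57BL/6 mice, and the labels give the genotype WT. PBM was given daily from day 7, tumours were taken on day 14, and cells carrying CD45, the pan-leukocyte surface protein, were sorted and pooled within a condition. The labels also call the cells tumour cells, although the protocol and the CD3 genes of the members describe immune cells. They state neither the number of mice in a pool nor the age or sex of the mice, and no treatment for the control group.

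Gamma-delta T cells carry an antigen receptor made of a gamma and a delta chain in place of the alpha and beta chains of conventional T cells, and most of them lack CD4 and CD8. Mouse gamma-delta T cells commonly fall into a kind that makes interleukin 17, depends on the transcription factor Sox13 among others, and bears scavenger receptors of the Cd163l1 family, and a kind that makes interferon gamma and expresses cytotoxic cell genes. Both kinds are found in mouse tumours, where they react early and often without a peptide presented by classical MHC molecules.

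The PBM library held 86159897 UMIs with a median of 5144 per barcode, and the control library 104673228 UMIs with a median of 5622. The libraries differed in makeup: 9 PBM and 1548 control barcodes passed a macrophage gate, and 2092 PBM and 168 control barcodes a B cell gate. Sparc, a matrix gene of non-immune cells that a CD45 sort is meant to leave out, was at 0.337 CPM over all PBM barcodes and 348 CPM over all control barcodes. The 2 libraries shared 1991 barcode names, which are cell numbers and not nucleotide sequences, so shared cells could not be looked for by sequence. Each group was 1 library, so no replicate error and no test exist, and treatment, pool of mice and library cannot be told apart. Every interval given is an exact 95% interval for counting error only. Levels are summed UMIs per 1000000 UMIs of the same cells (CPM), and log2 ratios are PBM over control, or members over comparison cells, of such levels.

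Members made up 0.423% of the PBM library (0.322 to 0.545) and 0.329% of the control library (0.232 to 0.454). As a share of barcodes with at least 2 CD3 UMIs they made up 0.621% of 9495 in the PBM library (0.473 to 0.801) and 0.981% of 3771 in the control library (0.692 to 1.35). The order of the libraries thus depended on the denominator. A PBM member held between 1469 and 8810 UMIs (median 4291) and a control member between 1148 and 24112 (median 3466). None of the 96 was called a doublet by Scrublet, which called 6.44% of PBM and 1.34% of control barcodes. Near the threshold, 17 PBM and 9 control members qualified by a single Trdc UMI with no Cd163l1, and 1 in each library by a single Cd163l1 UMI. Among barcodes just outside, a single UMI of Cd4, Cd8a or Cd8b1 kept out 52 in the PBM library and 9 in the control library. Ncr1 or Klrb1c alone kept out 12 PBM and 64 control barcodes, and a CD3 sum of 1 kept out 4 and 14.

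A single UMI of the entry genes was also met in cells that should lack them. In CD4-gated T cells, 2.67% of PBM and 0.778% of control barcodes held a UMI of Trdc or Cd163l1, and in CD8-gated T cells 4.92% and 2.19% did. Counts of 2 or more were found in 0.891% of PBM and 0 of 514 control CD4-gated barcodes, and in 2.26% of PBM and 0.672% of control CD8-gated barcodes. NK-gated cells held at least 1 such UMI more often, in 22.2% of 45 PBM and 18.4% of 684 control barcodes. They held 2 or more in 2.22% of PBM and 4.97% of control barcodes. A rate like that of CD8-gated cells was applied to the double-negative barcodes with the members included. At 1 or more UMIs it would come to 43.6 PBM and 15.5 control barcodes, against 59 and 37 members. At 2 or more UMIs it would come to 20.0 PBM and 4.76 control barcodes. The rate was not adjusted for depth. CD8-gated barcodes had medians of 6475 PBM and 5966 control UMIs, against 4043 and 3868 in the double-negative barcodes. B-gated barcodes, at medians of 3954 and 2631 UMIs, held 1 or more such UMIs in 1.10% of PBM and 0 of 168 control barcodes. Counts of 2 or more were met in 0 of 2092 PBM and 0 of 168 control B-gated barcodes. Requiring 2 UMIs of Trdc or Cd163l1 left 39 PBM and 27 control members.

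The entry genes described the receptor first. Trdc, the constant gene of the delta chain (mm10 chr14:54142851-54148868, plus strand), held 223 UMIs in 56 of 59 PBM members and 131 UMIs in 36 of 37 control members. Its count per member had a median of 3 in both libraries, with a highest count of 18 in PBM and 15 in control members. This abundance follows from the rule and is given as a description. Cd3e, a subunit of the CD3 signalling complex, was found in 50 PBM and 29 control members.

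The rule did not use the gamma chain, so its constant genes Tcrg-C1, Tcrg-C2, Tcrg-C3 and Tcrg-C4 were read as a check of the label. At least 1 of their UMIs was present in 37 of 59 PBM members (62.7%, 49.2 to 75.0) and in 25 of 37 control members (67.6%, 50.2 to 82.0). T cells that met the same rule but held no Trdc and no Cd163l1, called double-negative here, carried such a UMI in 3.87% of 828 PBM and 7.90% of 671 control barcodes, at median depths of 4043 and 3890 UMIs. B-gated cells, which should lack the genes, carried one in 0.478% of PBM and 0.595% of control barcodes, at median depths of 3954 and 2631 UMIs. With every barcode thinned to 1000 UMIs the shares were 32.2% of PBM and 35.1% of control members, against 1.45% of PBM and 2.83% of control double-negative cells. Of members with at least 2 Trdc or Cd163l1 UMIs, 33 of 39 in PBM and 19 of 27 in control held a gamma constant UMI. Of the rest, 4 of 20 in PBM and 6 of 10 in control did. A gamma chain was thus read in most members with repeated entry UMIs and in few of the PBM members that entered on 1 UMI.

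**Figure D1:**
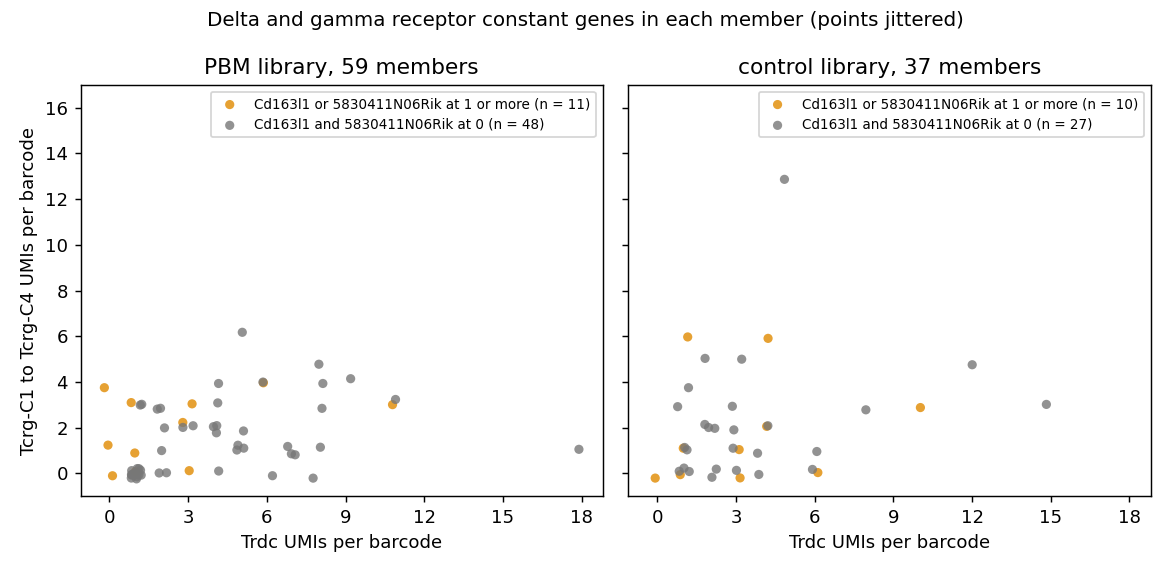
Trdc UMIs (x axis) against summed Tcrg-C1 to Tcrg-C4 UMIs (y axis) of each of the 59 PBM members (left) and 37 control members (right), with points moved slightly so that they do not hide each other; orange marks members with a UMI of Cd163l1 or 5830411N06Rik, grey all others. PBM members with a single Trdc UMI lie mostly at 0 gamma constant UMIs, and the highest gamma constant count is 6 in PBM and 13 in control members.

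The plot of delta against gamma constant UMIs shows how few molecules stand behind each member, with a median of 1 gamma constant UMI in both libraries. Tcrg-C1 (mm10 chr13:19214103-19217024, plus strand) was at 92.6 CPM in PBM members (58.7 to 139) and 162 CPM in control members (106 to 237), against 4.53 CPM in PBM and 3.89 CPM in control double-negative cells. Tcrg-C2 was at 125 CPM in PBM and 168 CPM in control members, against 6.80 and 5.84 CPM in the double-negative cells of the same libraries. Tcrg-C4 was at 133 and 156 CPM in PBM and control members, against 7.37 and 8.11 CPM. Tcrg-C1 and Tcrg-C2 are closely similar copies, so how reads were divided between them is uncertain. In CD8- and CD4-gated T cells none of Tcrg-C1, Tcrg-C2 and Tcrg-C4 exceeded 6.41 CPM in either library.

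Of the variable segments, Trgv2 was the only one with more than a handful of UMIs: 18 in 14 PBM members and 9 in 7 control members, or 72.5 and 56.1 CPM, against 0.567 CPM in PBM and 3.57 CPM in control double-negative cells. Tcrg-V1 had 2 UMIs in 2 PBM members and 5 UMIs in 4 control members, Tcrg-V6 had 0 and 1 UMI, and Trdv4 had 1 UMI in 1 PBM member and 7 in 4 control members. Tcrg-C3 had 5 UMIs in 3 PBM members and 0 in control members. Segment use could not be compared between the libraries at these counts.

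The members split along the scavenger receptor genes Cd163l1 and 5830411N06Rik. Cd163l1 (mm10 chr7:140218267-140231145, plus strand) had 12 UMIs in 6 PBM members and 32 UMIs in 7 control members, with highest counts of 5 and 15 in 1 member. Its neighbour 5830411N06Rik (mm10 chr7:140247284-140300736, plus strand), a related scavenger receptor gene that begins 16.1 kb downstream, was no part of the rule. It had 24 UMIs in 7 PBM members and 28 UMIs in 4 control members, or 96.6 CPM (61.9 to 144) and 174 CPM (116 to 252). In double-negative cells it was at 6.23 CPM in PBM and 0.487 CPM in control. Both genes were found in 3 of the 96 members, Cd163l1 alone in 10, 5830411N06Rik alone in 8 and neither in 75. As these neighbours are related genes, the 250 bases before the first listed RefSeq start of each (build GRCm38.p6, plus strand) are printed in lower case. Capitals would mark a match to AACAAT (SOX) or ATCAAAG (TCF/LEF), each searched on both strands, and neither motif contains the other.
Cd163l1, chr7:140218017-140218266: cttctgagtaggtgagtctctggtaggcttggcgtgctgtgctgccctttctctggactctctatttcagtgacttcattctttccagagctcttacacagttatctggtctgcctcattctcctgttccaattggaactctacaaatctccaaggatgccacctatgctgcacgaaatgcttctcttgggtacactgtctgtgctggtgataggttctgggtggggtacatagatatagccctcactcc
5830411N06Rik, chr7:140247051-140247300: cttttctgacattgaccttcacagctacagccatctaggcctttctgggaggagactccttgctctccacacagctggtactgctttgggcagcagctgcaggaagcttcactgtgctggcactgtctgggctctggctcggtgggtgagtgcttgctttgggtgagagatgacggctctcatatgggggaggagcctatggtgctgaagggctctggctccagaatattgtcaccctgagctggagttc

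Both windows held 0 matches, which says only that these letters are not in them. Among 27025 RefSeq promoter windows of 250 bases, 9.65% held AACAAT and 3.23% ATCAAAG. RefSeq listed 3 starts for 5830411N06Rik, and the first was used.

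Members with a UMI of either scavenger receptor gene numbered 11 in the PBM library and 10 in the control library. Sox13, a transcription factor needed by interleukin 17-producing gamma-delta cells in mice, had 7 UMIs in 5 PBM members and 3 UMIs in 3 control members. All 8 of these Sox13-positive members were among the 21 with a scavenger receptor UMI, and none was among the other 75. Blk, a Src family kinase gene expressed in the same lineage and in B cells, was found in 8 of the 21 and in 2 of the 75. Il23r, the receptor that drives interleukin 17 output, had 5 UMIs in 3 control members, all of them scavenger receptor-positive, and 0 in PBM members. Cxcr6, a chemokine receptor of tissue-resident lymphocytes, was found in 13 of the 21 and in 13 of the 75. Per library, scavenger receptor-positive members had Cxcr6 at 577 CPM in PBM (5 of 11 members) and 1087 CPM in control (8 of 10 members).

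Cytotoxic cell genes ran the other way. Ccl5, a chemokine made by effector lymphocytes, was found in 4 of the 21 scavenger receptor-positive members and in 51 of the 75 others. Ly6c2, a surface protein gene of effector and memory T cells, was found in 3 of the 21 and in 53 of the 75. The sum of Ccl5, Ly6c2, Nkg7 (a cytotoxic granule protein gene) and Klrd1 (the CD94 receptor chain gene) had a median of 0 and a highest count of 6 UMIs per scavenger receptor-positive PBM member, against a median of 5 and a highest of 139 in the other PBM members. In control members the median was 0 and the highest 11 UMIs with a scavenger receptor UMI, and the median 26 and the highest 152 without one. The ranges overlapped at their low ends in both libraries. Depth moved with this division: median UMIs were 2579 in scavenger receptor-positive PBM members against 4477 in the others, and 2178 against 3875 in control members.

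**Figure D2:**
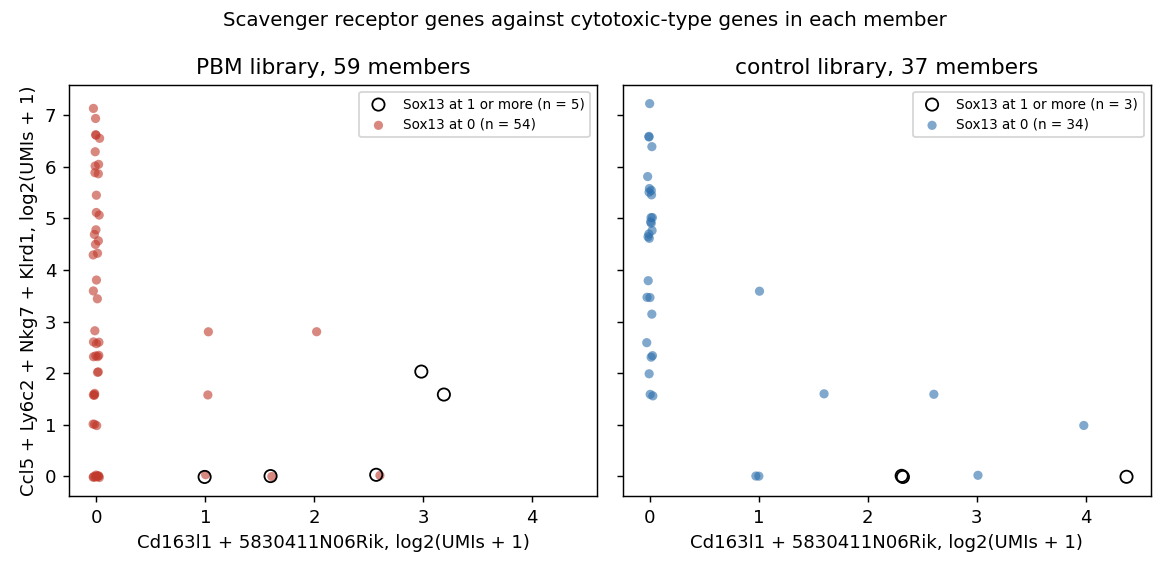
Each point is 1 member of the PBM library (left, 59) or the control library (right, 37), with log2(UMIs + 1) of Cd163l1 plus 5830411N06Rik on the x axis and of Ccl5, Ly6c2, Nkg7 and Klrd1 summed on the y axis; open circles mark members with a Sox13 UMI. Members with scavenger receptor UMIs stay at or below 6 (PBM) and 11 (control) summed UMIs on the y axis, and all 8 Sox13-positive members lie to the right of 0.

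The plot of scavenger receptor against cytotoxic genes shows both kinds of member in both libraries. Ccl5 and Ly6c2 marked one set: both were present in 47 members, neither in 32, and only 1 of them in 17. The 32 PBM and 20 control members with at least 2 Trdc UMIs and no scavenger receptor UMI had Ccl5 at 4527 and 5075 CPM, Ly6c2 at 1603 and 2051 CPM and Nkg7 at 988 and 1174 CPM. The scavenger receptor-positive members had Ccl5 at 60.8 CPM in PBM and 74.9 CPM in control, and Ly6c2 at 60.8 and 37.5 CPM. Nkg7 lay less far apart, at 334 CPM in PBM and 299.8 CPM in control scavenger receptor-positive members. Gamma constant genes were as high in the scavenger receptor-positive members (638 CPM in PBM, 712 CPM in control) as in the Trdc-rich remainder (494 and 593 CPM).

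Split by Cd163l1 alone, 13 members with and 83 without a UMI were compared over both libraries. Of 2590 genes with at least 20 UMIs in the members, 290 (11.2%) were at least 2-fold higher and 389 (15.0%) at least 2-fold lower in Cd163l1-positive members, a count that describes a division made with the entry gene. Positive members held 16109 UMIs in PBM and 19990 in control, against 232199 and 140484 in negative members. A gene near the 20 UMI minimum thus has few UMIs in positive members, and counting error alone can carry it past 2-fold. Besides Cxcr6 (942 CPM in positive and 129 CPM in negative members), the higher genes included Capg, which encodes an actin-capping protein (859 and 142 CPM), and Ramp1, part of a neuropeptide receptor (360 and 75.1 CPM). The Ramp1 difference lay in the control library, at 550 and 35.6 CPM, whereas in the PBM library it had 2 UMIs in positive members, at 124 and 99.1 CPM. The lower genes included Ccl5 (83.1 and 3494 CPM), Ly6c2 (55.4 and 1385 CPM) and Lck, the T cell receptor-proximal kinase gene (55.4 and 427 CPM). Tnfrsf9, first by size at 693 and 24.1 CPM, rested on 2 control members that held all 25 positive UMIs.

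Signature cytokines of either kind were scarce. Il17a, Il17f and Il22 had 0 UMIs in the members of both libraries, which allows up to 12.1 CPM in PBM and 18.7 CPM in control members at a floor of 3 counts. Ifng, which encodes interferon gamma, had 0 UMIs in PBM members and 1 UMI in control members, whereas it was at 2.22 CPM in PBM and 403 CPM in control CD8-gated cells. Gzmb, a granzyme gene, had 1 UMI in 1 PBM member and 15 UMIs in 7 control members, or 4.03 and 93.5 CPM, against 10.98 CPM in PBM and 557 CPM in control CD8-gated cells. Zbtb16, the transcription factor gene of innate-like T cells such as NKT cells, had 2 UMIs in PBM and 0 in control members, so the innate-like share of the label rested on few molecules.

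Against double-negative T cells, 47 of 2590 genes (1.81%) were at least 2-fold higher in members of both libraries and 12 (0.463%) at least 2-fold lower. These are descriptions, since the cells were divided by their own RNA. The higher set was led by the gamma constant genes and 5830411N06Rik, and went on with Cd160, Ccl5, Klrk1 (the NKG2D receptor gene) and Cxcr6. Cd160, an NK-type receptor gene, was at 92.6 CPM in PBM and 168 CPM in control members, against 18.4 and 23.0 CPM in double-negative cells. Ccl5 was at 3033 CPM in PBM and 3440 CPM in control members, against 473 and 709 CPM. In NK-gated cells Ccl5 was at 14310 CPM in PBM and 3583 CPM in control, above members. Klrk1 was also higher there, at 738 and 543 CPM, against 60.4 and 156 CPM in members. Cd160 was at 101 and 83.0 CPM in NK-gated cells. Cxcr6 was lower there than in members, at 7.2 CPM in PBM and 23.2 CPM in control. The 12 lower genes included the macrophage-expressed genes Arg1, Lyz2 and Lgals3, the glycolysis gene Tpi1 and the mitochondrial gene mt-Co3. Top2a and Stmn1, genes of dividing cells that the naming rule also brought up, had 1 and 3 UMIs in PBM members and 1 and 6 UMIs in control members, too few to enter that count. Arg1 was at 4.03 CPM in PBM and 337 CPM in control members, against 64.3 and 2886 CPM in double-negative cells. Macrophage markers as a whole summed to 56.4 CPM in PBM and 1732 CPM in control members, against 162 and 5192 CPM, and their part in the lower set was not tested.

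**Figure D3:**
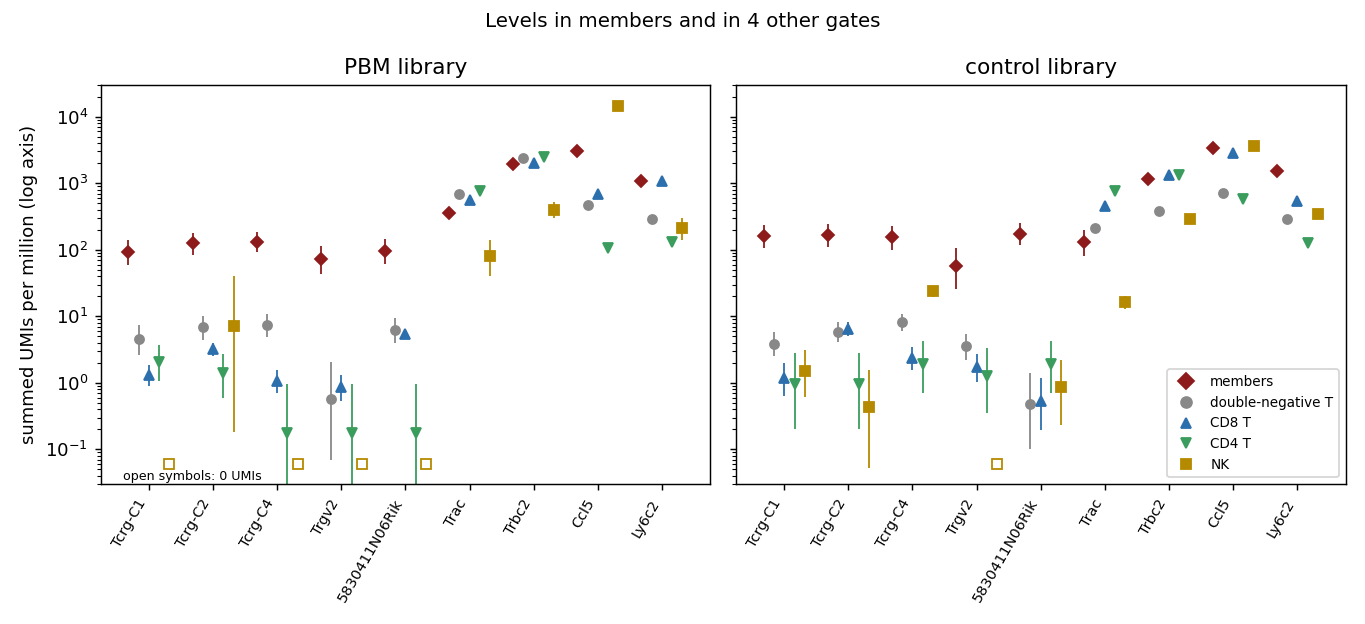
Levels in CPM on a log axis for 9 genes in members (diamonds) and in double-negative T, CD8 T, CD4 T and NK gates of the PBM library (left) and the control library (right); bars are exact 95% counting intervals and open symbols stand for 0 UMIs. Gamma chain genes and 5830411N06Rik lie above every other gate in both libraries, while Ccl5 and Ly6c2 of members lie near or above the CD8 gate and Trac below the CD8 and CD4 gates.

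Compared with CD8-gated cells, 42 genes (1.62%) were at least 2-fold higher and 4 (0.154%) lower in members of both libraries, and compared with CD4-gated cells 41 (1.58%) and 6 (0.232%). The 4 lower than in CD8-gated cells were Arg1, Lgals3, Nhp2 and Tnfrsf9. The 6 lower than in CD4-gated cells were Cd5, Gm12840, Il6ra, Isg20, Tnfrsf9 and Trac. Against double-negative, CD8- and CD4-gated cells at once, 14 genes (0.541%) were higher by that fold in both libraries, among them Tcrg-C1, Tcrg-C2, Tcrg-C4, Trgv2, 5830411N06Rik, Tmem176a, Tmem176b, Cd7, Calhm6, Cxcl10, Ifitm10, Samd3 and Usp48.

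The plot of levels by gate shows the summed levels of the receptor genes. By the smaller of the 2 libraries' ratios, gamma chain genes and 5830411N06Rik lay furthest above the other T gates. Few members carried 5830411N06Rik, 7 of 59 in PBM and 4 of 37 in control, and 1 control member held 15 of its 28 UMIs. In the PBM library 60 of 3289 CD8-gated barcodes also held it, so it did not separate single members from other T cells. Tmem176a and Tmem176b, paired membrane protein genes known from interleukin 17-producing T cells, were at 32.2 and 56.4 CPM in PBM members and 74.8 and 68.5 CPM in control members. In double-negative cells they were at 11.9 and 17.6 CPM in PBM and 17.8 and 26.9 CPM in control. Tmem176a rested on 4 PBM and 5 control members and Tmem176b on 6 and 5. In NK-gated cells Tmem176b was as high as in members, at 57.9 CPM in PBM and 75.4 CPM in control. They lie back to back and overlap on chromosome 6, so their reads may be shared. Cd7, a surface receptor gene of T and NK cells, was found in 22 PBM and 19 control members, at 201 and 355 CPM, against 68.3 and 46.9 CPM in double-negative cells. It was no lower in NK-gated cells of the PBM library, at 326 CPM, and stood at 162 CPM in those of the control library. Ifitm10 and Samd3 were higher in NK-gated cells than in members, Ifitm10 at 68.5 CPM in PBM and 62.3 CPM in control members against 224 and 83.4 CPM in NK-gated cells, and Samd3 at 44.3 and 56.1 CPM against 145 and 79.3 CPM. Cxcl10 rested on 1 PBM and 3 control members.

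Members also held transcripts of the alpha-beta receptor. Trac, the alpha chain constant gene, was found in 35 of 59 PBM members (59.3%, 45.8 to 71.9) and 11 of 37 control members (29.7%, 15.9 to 47.0). B-gated cells, which should lack it, carried a Trac UMI in 22.4% of 2092 PBM and 2.38% of 168 control barcodes, and double-negative cells in 82.5% of PBM and 56.5% of control barcodes. Thinned to 1000 UMIs, Trac was found in 23.7% of PBM and 13.5% of control members, against 47.6% and 33.2% of double-negative cells. PBM members had Trac at 362 CPM and control members at 131 CPM, against 681 CPM in PBM and 212 CPM in control double-negative cells, 563 and 454 CPM in CD8-gated cells and 756 and 765 CPM in CD4-gated cells. Scavenger receptor-positive members held Trac in 8 of 11 PBM and 0 of 10 control cells.

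Trac moved with the evidence for a gamma chain in the PBM library. PBM members with a gamma constant UMI had Trac at 194 CPM and those without at 596 CPM, and control members had 146 CPM with and 98.0 CPM without. Trbc1 and Trbc2, the beta chain constant genes, which gamma-delta cells can also transcribe, were at 1204 and 1945 CPM in PBM members and 355 and 1172 CPM in control members. The log2 ratio, PBM over control, was 1.47 for Trac (0.77 to 2.23), 1.76 for Trbc1 (1.35 to 2.20) and 0.73 for Trbc2 (0.49 to 0.98). The median of the 3 genes was 0.41 when only members with a gamma constant UMI were read, in place of 1.47.

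Across the members, PBM over control, 193 of 2590 genes (7.45%) were at least 2-fold higher and 307 (11.9%) at least 2-fold lower in PBM, and 45.7% were higher by any amount. The median over all 2590 was -0.06. With TMM factors, another scaling that moves every log2 ratio by 0.18, the counts were 272 higher and 225 lower, so the larger count changed sides, and the median over all genes became 0.12. With at least 2 Trdc or Cd163l1 UMIs required, 137 of 1681 genes tested were at least 2-fold higher and 143 lower.

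Genes of naive and recirculating T cells stood out as higher in PBM members. Of 18 in the list, 17 had 20 or more UMIs, 16 of these were higher and 9 at least 2-fold, with a median log2 ratio of 1.09. Dapl1, a gene of unstimulated T cells, had 108 UMIs in 26 PBM members and 5 UMIs in 2 control members, or 435 CPM (357 to 525) and 31.2 CPM (10.1 to 72.7). Lef1, a transcription factor gene of naive T cells, had 70 UMIs in 27 PBM members and 8 UMIs in 5 control members, or 282 and 49.9 CPM. The lymph node homing receptor gene Ccr7 was at 197 and 43.6 CPM, and S1pr1, which lets lymphocytes leave tissue, was at 177 and 62.3 CPM in PBM and control members. Tcf7 was at 451 and 249 CPM and Klf2 at 560 and 411 CPM, each under 2-fold. Treml2 was the single member of the list that was lower, at 68.5 CPM in PBM and 81.0 CPM in control.

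The same list was also higher in PBM in the other T gates, where the median log2 ratio of its 17 genes was 2.97 in double-negative, 2.96 in CD8-gated and 2.32 in CD4-gated cells. In the PBM library, Lef1 was at 282 CPM in members against 405 CPM in double-negative cells, and in the control library at 49.9 against 30.3 CPM. Among PBM members, naive genes moved with weak evidence for the gamma-delta receptor: Lef1 was at 490 CPM in the 16 members with 1 Trdc UMI and no scavenger receptor UMI and at 198 CPM in the 32 with 2 or more. Dapl1 was at 872 and 251 CPM in the same members. With a gamma constant UMI required, the list median was 1.10, with 10 of 11 measured genes higher, and with at least 2 entry UMIs it was 1.19, again with 10 of 11. Under that gamma constant requirement Lef1 was at 194 CPM in 37 PBM members and 54.8 CPM in 25 control members, and Dapl1 at 291 and 45.7 CPM.

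**Figure D4:**
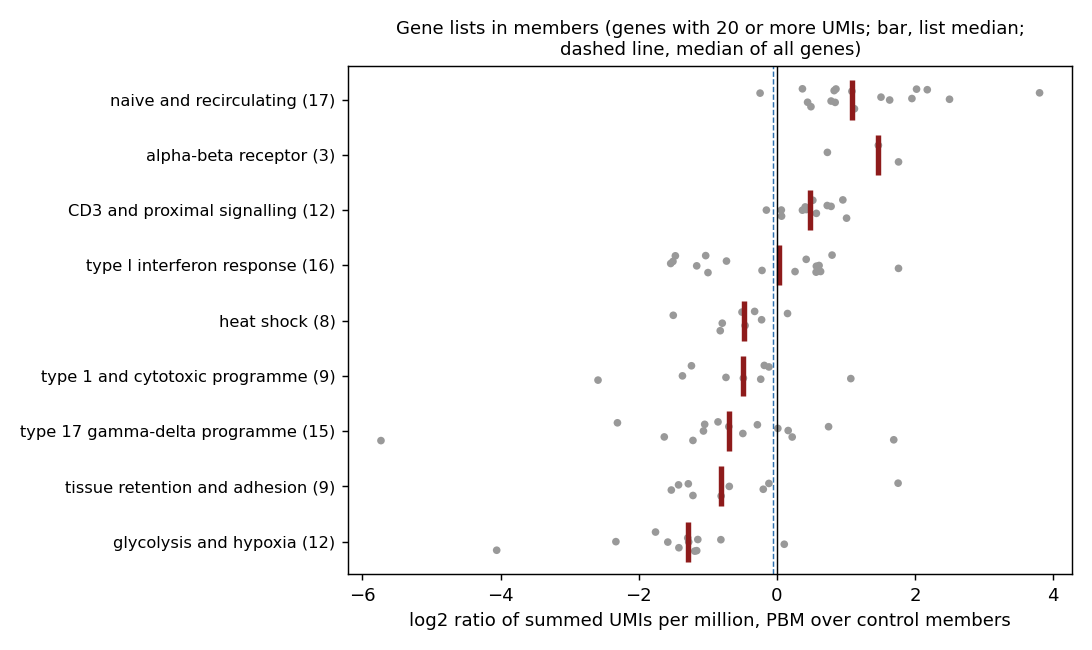
Log2 ratios of levels in CPM, PBM over control members (x axis), for the genes of 9 lists (rows, with the number of genes measured in brackets); grey points are genes, red bars list medians, and the dashed line is the median of all 2590 genes at -0.06. Naive genes lie to the right of 0 except for 1, and glycolysis genes to the left except for 1.

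Glycolysis and hypoxia genes showed the reverse, as the plot of list medians sets out. Of 12 measured genes 11 were lower in PBM members, 10 of them at least 2-fold, with a median log2 ratio of -1.28. Gapdh was at 499 CPM in PBM and 1221 CPM in control members (log2 ratio -1.29, -1.63 to -0.96), Aldoa at 290 and 866 CPM, and Pkm at 197 and 667 CPM. Tpi1 had 4 UMIs in 4 PBM members and 43 UMIs in 16 control members. Ldha, the lactate dehydrogenase A gene, was at 302 and 530 CPM, under 2-fold, and Pfkp at 80.6 and 74.8 CPM. The list's median was -2.04 in double-negative, -2.07 in CD8-gated and -2.02 in CD4-gated cells. It was -1.20 without 1 control member of 24112 UMIs that was rich in non-immune transcripts, and -1.15 with a gamma constant UMI required. Macrophage markers, which were at 0 in 49 of 59 PBM members and in 1 of 37 control members, moved with these genes, and their part was not tested.

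Type 1 and cytotoxic genes were mostly a little lower in PBM members, with 8 of 9 lower, 3 at least 2-fold, and a median of -0.48. Ccl5 differed little, at a log2 ratio of -0.18 (-0.34 to -0.02), with 753 UMIs in 31 PBM members and 552 UMIs in 24 control members. Ly6c2 was at 1095 and 1533 CPM and Nkg7 at 620 and 729 CPM. Xcl1, a chemokine gene, had the lowest ratio of the 9, with 18 UMIs in 6 PBM members and 70 UMIs in 12 control members, or 72.5 and 436 CPM. Il2rb, the interleukin 2 receptor beta chain gene, was at 177 and 418 CPM. Cd27, a costimulatory receptor gene of interferon-producing gamma-delta cells, was the 1 that was higher, at 262 CPM in PBM and 125 CPM in control. The same list had medians of -0.73 in double-negative, -1.50 in CD8-gated and -2.41 in CD4-gated cells.

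Of 15 measured type 17 genes 5 were higher and 10 lower in PBM members, 1 and 6 of them at least 2-fold, with a median of -0.70. Lgals3, a gene that macrophages also express highly, had 3 UMIs in PBM and 103 UMIs in control members and led the lower side. Il18r1 was at 80.6 and 168 CPM and Igf1r at 36.2 and 112 CPM. Il7r, the interleukin 7 receptor gene (298 and 255 CPM), and Ramp1 (101 and 99.7 CPM) differed by less than their counting intervals. Sox4, the highest ratio at 80.6 and 24.9 CPM, rested on 8 PBM and 2 control members. The same list had medians of -0.58 in double-negative, -0.83 in CD8-gated and -1.62 in CD4-gated cells, so its lower median was not particular to members. Over all 2590 genes tested in members, 1407 were lower.

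Of 9 tissue retention and adhesion genes 8 were lower in PBM members, 4 at least 2-fold, with a median of -0.81. Itgb7, an integrin chain gene, was at 274 and 636 CPM, Cd44 at 113 and 274 CPM, Rgs1 at 88.6 and 256 CPM and Cxcr6 at 121 and 324 CPM in PBM and control members. Itga4 was higher, at 189 and 56.1 CPM. The median of the retention list was 0.39 in double-negative, -0.75 in CD8-gated and -0.75 in CD4-gated cells. Of 12 CD3 and receptor-proximal signalling genes 11 were higher, by a median of 0.47, and Lat, an adaptor gene of the T cell receptor, was the 1 past 2-fold at 439 and 218 CPM. Heat shock genes were lower in 7 of 8, with a median of -0.48, among them Hsp90ab1 at 1031 and 1820 CPM. Type I interferon response genes divided evenly, 8 higher and 8 lower with a median of 0.02, and Ifi27l2a was at 950 CPM in PBM and 280 CPM in control members. In double-negative, CD8-gated and CD4-gated cells the CD3 and signalling list had medians of 1.85, 0.33 and 0.12. Heat shock genes had -0.78, -0.65 and -0.41 there, and interferon response genes 1.05, 0.99 and 0.31.

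Other lists held few measured genes. Gamma-delta receptor genes outside the rule had a median of -0.33 over 4, innate-like and NK-type receptors -0.53 over 6, innate lymphoid cell genes -1.07 over 4, checkpoint and activation genes 0.09 over 5, and lipid genes -0.75 over 5. Immediate early genes had -0.18 over 14, survival genes -0.32 over 6, and cell cycle genes 0.31 over 2. Of growth and tissue-repair factors 1 gene was measured, at -0.71. Mki67, a gene of dividing cells, had 0 UMIs in PBM and 2 UMIs in control members.

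Several of the genes with the largest ratios, mostly on the lower side, were shaped by 1 or 2 barcodes. On the higher side the rule named Dapl1, Npm3, Cxcl2, Lef1, Sidt1, Gm14164, Ccr7, Rflnb, Rasgrp2, Gm8369, Aff3 and Trbc1. Cxcl2, a chemokine gene of myeloid cells, held all of its 37 PBM UMIs in 2 members with 1 Trdc UMI each and no gamma constant UMI. No other gene named on the higher side had more than 21.3% of its PBM UMIs in 1 member. On the lower side it named Sparc, Mt1, Klf4, Anxa1, Tnfrsf9, Timp3, Clic4, Slurp1, Lmna, AA467197, Igfbp6 and Col3a1. Sparc, Timp3, Slurp1, Igfbp6 and Col3a1, genes of matrix, stroma and epithelium, were at 0 in all 59 PBM members. In the control library Timp3 had 89 UMIs and Slurp1 61, of which 1 member held 89 and 60. That member had 24112 UMIs, 1 Trdc UMI and no gamma constant UMI. Non-immune markers were at 0 in 46 of 59 PBM and 32 of 37 control members and summed to 60.4 CPM in PBM and 1527 CPM in control members.

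Without that barcode 175 of 2381 genes tested were at least 2-fold higher and 214 lower in PBM. Among genes found in at least 5 members of the higher library with no member holding more than 50% of the UMIs, a choice made after the values were seen, Dapl1 stayed first on the higher side with a log2 ratio of 3.57 (2.30 to 5.22). Npm3, a nucleolar chaperone gene, followed at 2.94 (0.96 to 6.06), with 28 UMIs in PBM and 2 in control members. Gm14164 was at 2.46 (0.77 to 4.81), with 30 and 3 UMIs, then Lef1 at 2.26 and Ccr7 at 2.17. The first 2 differed less in double-negative cells, Npm3 at 96.9 CPM in PBM and 68.8 CPM in control, and Gm14164 at 149 and 76.4 CPM. In CD8-gated cells Npm3 was at 114.9 and 84.95 CPM. Among members, Foxo1, a transcription factor gene that maintains quiescent T cells, was at a log2 ratio of 1.49. On the lower side stood mt-Atp6 at -3.28 and mt-Co3 at -2.92, each with 6 UMIs in PBM members. S100a6, a calcium-binding protein gene of activated cells, followed at -2.84 (-3.17 to -2.52), with 98 UMIs in 26 of 59 PBM members and 385 UMIs in 35 of 36 control members, or 395 and 2823 CPM. It was lower in PBM in the other gates too: it was found in 26.6% of PBM and 94.8% of control double-negative cells, in 27.9% and 98.1% of CD8-gated cells, and in 16.5% and 81.6% of B-gated cells.

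**Figure D5:**
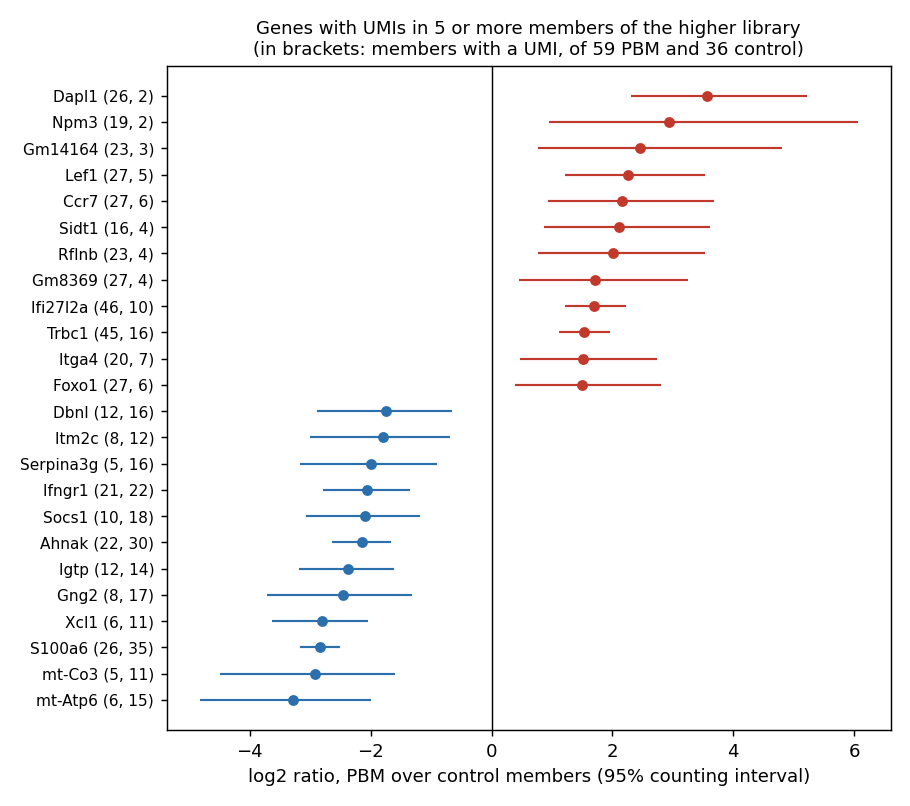
Log2 ratio, PBM over control members (points, with exact 95% counting intervals), for the 12 genes highest and the 12 lowest after the control barcode rich in non-immune transcripts was left out; brackets give the members with a UMI, of 59 PBM and 36 control. Dapl1 is first on the higher side at 3.57 and mt-Atp6 first on the lower side at -3.28.

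Other genes of the lower side in the plot of broadly found genes had ratios nearer to 0. Igtp, an interferon-inducible GTPase gene, was at 80.6 CPM in PBM and 418 CPM in the 36 control members (log2 ratio -2.38, -3.19 to -1.62). Socs1, a feedback inhibitor of cytokine signalling, was at 60.4 and 257 CPM, and Ifngr1, which encodes a chain of the interferon gamma receptor, at 101 and 418 CPM. Igtp was found in 12 of 59 PBM and 14 of 36 control members, Socs1 in 10 and 18, and Ifngr1 in 21 and 22. Ahnak, a large scaffold protein gene, was found in 22 PBM and 30 control members, at 209 and 924 CPM.

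Markers of other cell types were also present in members. B cell markers had at least 1 UMI in every PBM member and were at 0 in 20 of 37 control members. They summed to 1716 CPM in PBM and 206 CPM in control members, against 2131 and 117 CPM in double-negative cells, although Cd79a, Cd79b and Ms4a1 had been limited by the rule. Lyz2, a gene of macrophages and neutrophils, was at 4.03 CPM in PBM and 985 CPM in control members, against 97.7 and 2923 CPM in double-negative cells. Fcer1g, a signalling chain gene of NK and myeloid cells, was at 44.3 and 604 CPM. Among control members, 1 with 10464 UMIs held 93 of the 278 macrophage marker UMIs, with 64 UMIs of Lyz2 and 30 of Fcer1g. Neutrophil markers summed to 48.3 CPM in PBM and 31.2 CPM in control members, against 17.3 and 325 CPM in double-negative cells. NK markers summed to 60.4 CPM in PBM and 99.7 CPM in control members, with Ncr1 and Klrb1c at 0 by rule. Over 20 markers of other cell types the level in members had a median of 13.9% of the PBM library's level and 11.96% of the control library's, with single markers between 0 and 602% in PBM and between 0 and 197% in control. When those medians were subtracted as free RNA, 162 of 2288 genes tested were at least 2-fold higher and 254 lower in PBM members.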

How the data were processed

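Single-cell RNA libraries, 1 PBM and 1 control, were analysed from matrices of raw UMI counts per gene and barcode that the authors deposited without normalization. The submitters' processing notes name Cell Ranger 7.2.0 and mm10, whereas per the file headers the matrices were written by PISA 0.12; the program that filtered barcodes is not settled. Every barcode held over 1000 UMIs (lowest totals 1005 in PBM and 1002 in control). The feature lists hold 23277 PBM and 26394 control symbols, 22483 in both, and only symbols in both were compared.

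Counts were summed over the barcodes of each gate. Double-negative, CD8 and CD4 T gates followed the members' rule with Trdc and Cd163l1 at 0. NK, B and macrophage gates needed a CD3 sum of 0 and at least 2 NK gene UMIs, 3 B gene UMIs or 3 C1q UMIs. Genes needed 20 UMIs in the members of both libraries together, and 2-fold was the limit for a count. A sum of 0 was set to 3 counts. Intervals are exact Poisson (levels), Clopper-Pearson (shares) and conditional binomial (ratios). Doublets were called with Scrublet (scanpy 1.11.5). Python 3.11.15, numpy 2.4.6, scipy 1.17.1, pandas 2.3.3, R 4.3.3 and edgeR 4.0.16 (TMM factors only) were used. Scripts were checked on simulated data.

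Named genes are the 12 in each direction with the largest PBM over control ratio. These needed at least 30 UMIs, intervals that do not overlap and at least 0.5 times the library's level. For members over double-negative and for Cd163l1-positive over negative members, 8 in each direction were named with at least 30 UMIs and without the other limits. For genes lower in members than in double-negative cells, the 30 UMIs were counted in the double-negative cells. List members and entry genes were added. The members and gene lists were chosen with earlier results of these data known. No test was made, since each group is 1 library. Alternatives were TMM factors, a scale without mitochondrial and ribosomal protein genes, cell filters, 2 entry UMIs, thinning to 1000 UMIs, subtraction of free RNA, and minimums of 50 UMIs and 1 UMI. Leaving out barcodes rich in non-immune or Cxcl2 UMIs, requiring a gamma constant UMI, and CD8- or CD4-gated comparison cells were added after the data had been seen. Gene coordinates are GENCODE's for mm10. Values of a few genes named by these rules are not reported here.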

Additional observations from a re-analysis of the deposited data

Results flagged for a closer look

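For 9 genes the difference between members and double-negative T cells ran in opposite directions in the libraries, by counting intervals that exclude 0; the difference between libraries was not tested. On the log2 scale, members over double-negative cells, Cd14 was at 2.41 in PBM and -1.32 in control, Cxcl2 at 6.04 and -3.42, Egr1 at 0.99 and -2.48, and Ier3 at 2.75 and -0.90. Tubb5, a tubulin gene, was at 0.35 in PBM and -0.94 in control. For the other 4 genes the PBM value was the negative one: Trbc2 was at -0.29 in PBM and 1.62 in control, Itgb7 at -0.42 and 1.22, Junb at -0.38 and 0.90, and Nsg2, a naive T cell gene, at -0.76 and 2.24. Macrophage markers in double-negative cells were at 162 CPM in PBM and 5192 CPM in control, and their part in these differences was not tested.

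Genes listed for the control library only entered no comparison. Among them Cspg4 had 13 UMIs in control members, Dlx3 6 and Lrrn4cl 6, above the 3 counts that a sum of 0 allows.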

How the results depend on the processing

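No paired analysis was possible because each group is 1 library and the labels give no replicate numbers; no library could be left out. Of 773 alternative values, 652 kept their direction and size, 103 moved and 18 reversed. Some of the 652 could not have changed, so their number does not measure stability. The cell filters and Scrublet removed no member, so values under that setting equalled the main ones. Another minimum of UMIs changes which genes are counted but not the ratio of a single gene. The naive list median stayed between 0.92 and 1.51 and the glycolysis median between -1.29 and -1.09 under every alternative.

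Genes 2-fold higher and lower, PBM over control members, numbered 39 and 43 of 518 tested (thinned). With at least 50 UMIs they numbered 36 and 82 of 934, and with 1 UMI 904 and 1580 of 11758. With a gamma constant UMI they numbered 112 and 145 of 1599, and with 2 entry UMIs 143 of 1681 were lower. Of all genes past 2-fold, 38.6% were higher, but 54.7% with TMM factors, 53.4% without mitochondrial and ribosomal protein genes and 48.9% with 2 entry UMIs. Higher and lower counts against double-negative cells were 4 and 4 (thinned), 19 and 6 (at least 50 UMIs), and 7 lower with 2 entry UMIs; 4 were lower than CD8-gated and 6 than CD4-gated cells. The Cd163l1 split gave 39 and 64 (thinned) and 65 and 119 (at least 50 UMIs). In all of these comparisons fewer than 2590 genes entered the thinned, 50 UMI and 2 entry UMI counts. Members were 0.251% of PBM and 0.169% of control barcodes (thinned), and 0.279% of all and 0.411% of CD3-positive PBM barcodes with 2 entry UMIs. Unthinned shares with a gamma constant UMI were 62.7% and 67.6%. The type 17 median was -1.83 when thinned.

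Reversed medians were those of type I interferon (-0.96 thinned, -1.01 with at least 50 UMIs, -0.73 with 1 UMI, -0.14 without the non-immune-rich barcode, -0.0487 with a gamma constant UMI), checkpoint (-0.68 with 2 entry UMIs, -0.15 without the non-immune-rich barcode, -0.0114 without Cxcl2-rich barcodes), immediate early (0.0005 with TMM, 0.0608 with 2 entry UMIs) and lipid genes (0.14 without the non-immune-rich barcode). Cxcl2 was at -1.01 without Cxcl2-rich barcodes and -0.81 with a gamma constant UMI. Members over comparison cells, Ube2c in PBM was at 1.00 when thinned, Klrk1 in control at -0.49 against CD8-gated cells, and Cxcr6 in control at -0.0135, Arg1 in PBM at 0.21 and Ifitm1 in PBM at 1.36 against CD4-gated cells. Fewer molecules or members enter the thinned, 50 UMI and entry settings by construction; the cause was otherwise not tested. With 96 members, a gene under 20 UMIs could not be compared.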
